A study of Homo sapiens with 6 samples.

Results

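Hepatocyte growth factor (HGF), its receptor MET, the proteases that activate the ligand and the inhibitors of those proteases form a set of 9 genes, taken by gene symbol from the 38843 genes of the deposited table. The set also holds the sister ligand and receptor, MST1 and MST1R. The members were selected on the measured log2 fold change of HGF between treated and control libraries, so the fold changes of the 9 genes are given as a description, without a test. Messenger RNA was sequenced on day 3 from PC-3, an established cell line from a metastasis of a prostate cancer, labelled as wild type. There were 3 libraries from cells given 5 µM cepharanthine hydrochloride, an alkaloid obtained from Stephania plants, and 3 libraries from control cells. Both groups grew in DMEM with 10% fetal bovine serum. The comparison asked which transcripts differ after exposure, within a study of how the alkaloid acts against prostate cancer.

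HGF is made as an inactive single chain, mostly by mesenchymal cells, and acts on epithelial cells that carry the receptor tyrosine kinase MET. A serine protease must cut the chain before it can switch the receptor on: matriptase (ST14), hepsin (HPN) and the HGF activator (HGFAC) can do so, and the Kunitz-type inhibitors SPINT1 and SPINT2 block them. Macrophage-stimulating protein (MST1) is a relative of HGF that is activated in a similar way and signals through MST1R, also called RON, a relative of MET.

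Libraries held 53017816 to 68241156 counts with cepharanthine and 52774506 to 59241954 in controls. Levels are CPM (counts scaled to library size with TMM factors) or the authors' FPKM, which are per length. A count of 0 is bounded at 3 counts, or 0.0426 to 0.0594 CPM; this bound and the Poisson intervals hold counting error alone. Nothing in the labels places the replicates in different cultures, and the p-values may therefore reflect technical spread. Transcripts of mitochondrially encoded genes took 4.86% to 6.61% of counts with cepharanthine and 8.75% to 12.2% in controls. Of a list of 8 epithelial and prostate cancer line markers, KRT8, KRT18 and KRT19 were between 166 and 513 CPM in every library. CDH1 was at 78.1 to 94.2 CPM and EPCAM at 40.2 to 56.5 CPM, while KRT5 did not exceed 0.135 CPM. The list also holds KRT7 and VIM, which differed between the groups and are given below. In bulk libraries, fewer cells of a kind and less RNA per cell cannot be told apart.

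The ligand HGF was the member that was higher with cepharanthine. Its transcripts stood at 20.5, 16.3 and 22.3 CPM in cepharanthine libraries, against 1.89, 1.87 and 1.68 CPM in control libraries. The lowest treated library was far above the highest control library, and the 3 controls lay close together. These levels came from 1210, 878 and 1567 counts with cepharanthine and from 101, 112 and 85 counts in controls. The means were 19.7 ± 3.05 CPM with cepharanthine and 1.82 ± 0.116 CPM in controls (SD, n = 3 each), a 10.8-fold ratio. The log2 fold change of cepharanthine over control was 3.44 ± 0.17 (SE). It ranked 22nd from the top among 21965 genes tested, and this is the value for which the set was chosen. Of the 21 genes above it, 9 had a count of 0 in every control library and 1 had a mean control level of at least 1 CPM.

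The level of HGF stayed modest in treated cells. On the FPKM scale HGF was at 1.87, 1.41 and 2.10 with cepharanthine and at 0.160, 0.170 and 0.140 in controls. Its mean FPKM exceeded that of 49.4% of tested genes with cepharanthine and that of 12.2% in controls. The table lists 9 transcripts for HGF (ENSG00000019991, chromosome 7, 81699010 to 81770398, minus strand, GRCh38), and gene counts cannot separate full-length messages from the short ones that encode truncated ligands. No other gene of the table overlapped it.

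The values of other cell types that make HGF are given beside this result. Of 11 fibroblast and stromal markers, 7 passed the filter on low counts, 0 were higher and 2 were lower with cepharanthine by the edgeR quasi-likelihood test (0 and 2 also at an unadjusted p under 0.05). These calls were 28.6% of the markers tested, close to the 27.9% of all genes tested. Their summed level was 70.0 to 77.4 CPM with cepharanthine and 126 to 153 CPM in controls. It was made up almost wholly of the collagen genes COL1A1 and COL3A1, and no other marker exceeded 1.76 CPM in any library. POSTN was at 0 in every library, FAP was at 0 with cepharanthine, and DCN did not exceed 0.241 CPM. The summed level of 6 blood cell markers was 3.33 to 4.77 CPM with cepharanthine and 4.70 to 6.12 CPM in controls. The share of mitochondrial transcripts also moved with the groups, and without those genes the log2 fold change of HGF was 3.43.

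Neither tested neighbour of HGF on the chromosome was called higher. The nearest tested protein-coding gene at lower coordinates, the semaphorin gene SEMA3C, lies 776651 bases away and fell (62.7 ± 4.16 CPM with cepharanthine, 78.5 ± 6.61 CPM in controls, SD, log2 fold change -0.32 ± 0.09, edgeR adjusted p = 0.0193). At higher coordinates the calcium channel subunit gene CACNA2D1, 176046 bases away, was at 0.577 ± 0.125 CPM with cepharanthine and 0.789 ± 0.290 CPM in controls (log2 fold change -0.45 ± 0.44, edgeR adjusted p = 0.502).

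The promoters of the ligand and the receptor are shown because these genes lie on the same chromosome, 34.9 Mb apart, and differed in direction. The sequences are the 250 bases before each RefSeq start (GRCh38.p14), read along the transcribed strand, chr7:81770048-81770297 on the minus strand for HGF and chr7:116671946-116672195 on the plus strand for MET. In the deposited coordinates HGF extends to 81770398, so its window lies inside the gene as annotated there. The MET window ends at 116672195, next to the deposited gene start at 116672196. Capitals mark the GC box GGGCGG on either strand.

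HGF: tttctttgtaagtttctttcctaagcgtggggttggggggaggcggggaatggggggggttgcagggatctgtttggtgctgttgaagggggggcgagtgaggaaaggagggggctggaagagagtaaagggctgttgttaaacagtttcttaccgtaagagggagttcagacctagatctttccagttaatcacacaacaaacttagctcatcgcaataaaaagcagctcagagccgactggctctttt
MET: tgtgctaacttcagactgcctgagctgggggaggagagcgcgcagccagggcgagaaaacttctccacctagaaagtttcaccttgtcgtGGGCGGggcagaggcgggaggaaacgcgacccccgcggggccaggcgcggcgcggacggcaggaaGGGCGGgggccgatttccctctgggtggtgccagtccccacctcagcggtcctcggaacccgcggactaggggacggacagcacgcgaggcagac

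The HGF window was 50% G and C with 6 CpG pairs, and the MET window 68.4% with 24. Over 35116 RefSeq promoter windows of this length the median was 58%, with 11 CpG pairs. The members with a window numbered 7, and the other 5 were between 63.6% and 80.4% G and C. The MET window held 2 GC boxes, from 160 to 155 and from 95 to 90 bases before the start, and the HGF window 0, while 42.6% of all windows held at least 1. Both windows held 0 matches, on either strand, to the AP-1 site TGANTCA (6.57% of windows), the C/EBP-ATF element TGATGNAA (3.14%), the cAMP response element TGACGTCA (1.65%), the E-box CACGTG (6.34%), CCAAT (32.0%), TATAAA (10.7%), the C/EBP site TTGCNNAA (9.05%) and the nuclear receptor site AGGTCA (12.1%). These counts describe the letters in the windows and say nothing about binding.

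**Figure D1:**
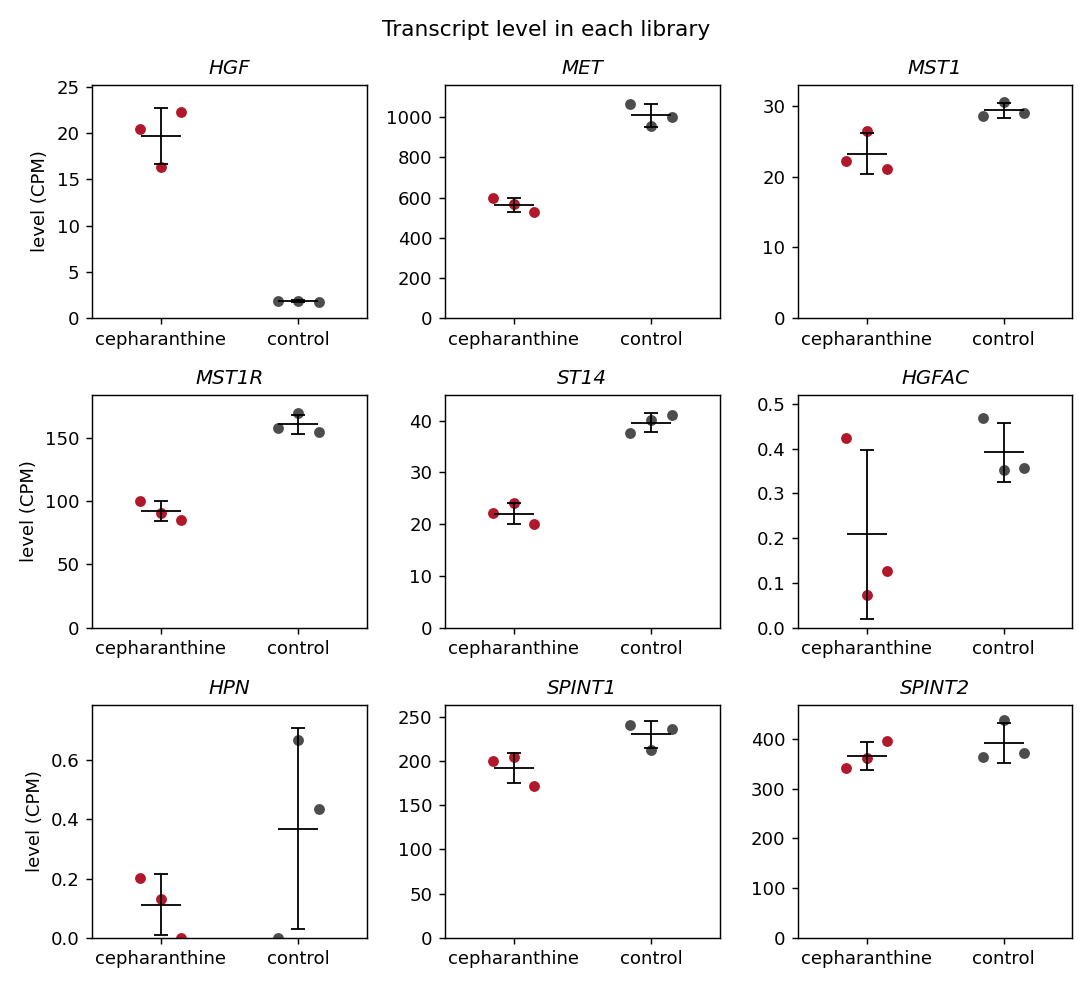
Level in CPM (vertical axis, from 0, a separate scale in each panel) of the 9 genes in 3 cepharanthine and 3 control libraries. Points are libraries, and bars are the mean and SD. HGF is at 16.3 to 22.3 CPM with cepharanthine and at 1.68 to 1.89 CPM in controls, while MET, MST1R and ST14 are lower in every cepharanthine library than in any control.

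The receptor MET was lower with cepharanthine. It stood at 597, 566 and 528 CPM in cepharanthine libraries, against 1068, 957 and 1002 CPM in control libraries. The groups did not overlap, and the gap between them was wider than the range within either. The mean was 564 ± 34.6 CPM with cepharanthine and 1009 ± 56.0 CPM in controls (SD, n = 3 each), a log2 fold change of -0.84 ± 0.08 (SE). MET (ENSG00000105976) lies on chromosome 7 from 116672196 to 116798377 on the plus strand. Even at the lower level it remained among the most abundant messages per length, with a mean FPKM above that of 98.3% of tested genes with cepharanthine and of 99.2% in controls. In the deposited annotation HGF belongs to 13 KEGG pathways and MET to 20, which include all 13.

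Since the ligand was higher and the receptor lower, their ratio differed by more than either. The FPKM of MET divided by that of HGF in the same library, a value that no scaling of libraries alters, was 39.5, 47.0 and 32.0 with cepharanthine and 781, 697 and 817 in controls. The mean ratio was 39.5 ± 7.49 with cepharanthine and 765 ± 61.8 in controls (SD, n = 3 each), 19.4 times lower. MET message still exceeded HGF message in every treated library.

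The sister receptor MST1R was lower by about as much as MET. It was at 100, 91.0 and 85.3 CPM with cepharanthine and at 158, 169 and 155 CPM in controls. All treated libraries lay below all controls (log2 fold change -0.80 ± 0.08). The ratio of MET to MST1R in FPKM was 4.45 ± 0.108 with cepharanthine and 4.58 ± 0.423 in controls (SD, n = 3 each), with overlapping values. MST1R (ENSG00000164078) lies on chromosome 3 from 49887002 to 49903873, 198 kb from its ligand gene. It overlaps 2 unnamed genes on the opposite strand, which held at most 61 counts over the libraries of a group.

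MST1, its ligand, was slightly lower. It was at 22.2, 26.5 and 21.1 CPM with cepharanthine and at 28.7, 30.6 and 29.01 CPM in controls (log2 fold change -0.34 ± 0.11). The highest treated library came close to the lowest control. After rescaling FPKM to TPM the log2 fold change was -0.10 ± 0.12, so the lower level of MST1 depends on the scaling. MST1 (ENSG00000173531, chromosome 3, 49683947 to 49689053) has near-identical copies, and its value is uncertain for that reason. MST1P2 held 736, 617 and 745 counts with cepharanthine and 671, 738 and 508 in controls, while MST1 held 1314, 1428 and 1483 with cepharanthine and 1530, 1829 and 1466 in controls. The authors' way of sharing reads between copies is not given in the sources used here. HGF and MST1 differed in their levels and in their fold changes: MST1 had 2.33 ± 0.689 times the FPKM of HGF with cepharanthine and 31.6 ± 1.91 times in controls (SD, n = 3 each).

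Of the activating proteases in the set, only ST14, which encodes the membrane-bound matriptase, was well expressed. Other proteases that can cut HGF, among them the more abundant PLAU, are given below. ST14 was lower with cepharanthine. It was at 22.1, 24.0 and 20.04 CPM in cepharanthine libraries, against 37.6, 40.1 and 41.0 CPM in control libraries, a log2 fold change of -0.84 ± 0.10 without overlap. ST14 (ENSG00000149418) lies on chromosome 11 from 130159782 to 130210362.

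HGFAC, the activator that circulates in plasma, was near the limit of detection, at 25, 4 and 9 counts with cepharanthine and 25, 21 and 18 counts in controls. Over the group this was 0.207 CPM with cepharanthine (exact Poisson interval at 95% 0.147 to 0.284) and 0.391 CPM in controls (0.301 to 0.499). Its log2 fold change of -0.91 ± 0.74 was of the size of its error, and without cepharanthine replicate 1 it was -1.92 ± 0.85. HPN, which encodes hepsin, a membrane protease known to be raised in many prostate cancers, had 12, 7 and 0 counts with cepharanthine and 0, 40 and 22 counts in controls. A library of each group was at 0, which allows up to 0.0426 CPM with cepharanthine and 0.0562 CPM in controls. The control libraries of HPN differed from each other more than the groups did, and its log2 fold change was -1.74 ± 1.36. The pooled level was 0.104 CPM with cepharanthine (exact Poisson interval 0.0624 to 0.162) and 0.379 CPM in controls (0.290 to 0.486), intervals that leave out the spread between libraries.

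The inhibitors were abundant and differed little between the groups. SPINT1, which encodes HAI-1, the main partner of matriptase, was at 200, 204 and 173 CPM with cepharanthine and at 241, 213 and 237 CPM in controls, a log2 fold change of -0.26 ± 0.09. SPINT2, which encodes HAI-2, was at 341, 361 and 396 CPM with cepharanthine and at 364, 437 and 372 CPM in controls (-0.09 ± 0.09). The groups overlapped for SPINT2 and nearly met for SPINT1. After rescaling to TPM the log2 fold changes were -0.02 ± 0.09 for SPINT1 and 0.15 ± 0.15 for SPINT2, both within their error. The sign of SPINT2 turned, but its value was of the size of its error in both fits. SPINT1 (ENSG00000166145) is on chromosome 15 from 40844018 to 40858207, and SPINT2 (ENSG00000167642) on chromosome 19 from 38244035 to 38292615. An antisense gene, SPINT1-AS1, overlaps SPINT1 by 370 bases and held 296 counts with cepharanthine and 289 in controls, while SPINT1 held 34985 with cepharanthine and 37605 in controls. SPINT2 overlaps PPP1R14A on the opposite strand, with 0 counts with cepharanthine and 7 in controls, and HPN overlaps HPN-AS1, with 3 counts with cepharanthine and 5 in controls.

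The balance of inhibitor over protease message was therefore higher in treated cells. SPINT1 had 10.5, 9.91 and 10.0 times the FPKM of ST14 with cepharanthine and 7.47, 6.18 and 6.72 times in controls. SPINT2 had 12.5, 12.2 and 16.0 times the FPKM of ST14 with cepharanthine and 7.85, 8.83 and 7.34 times in controls. Neither ratio overlapped between the groups. The ratio of SPINT2 to SPINT1 did overlap, at 1.34 ± 0.227 with cepharanthine and 1.19 ± 0.207 in controls (SD, n = 3 each).

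**Figure D2:**
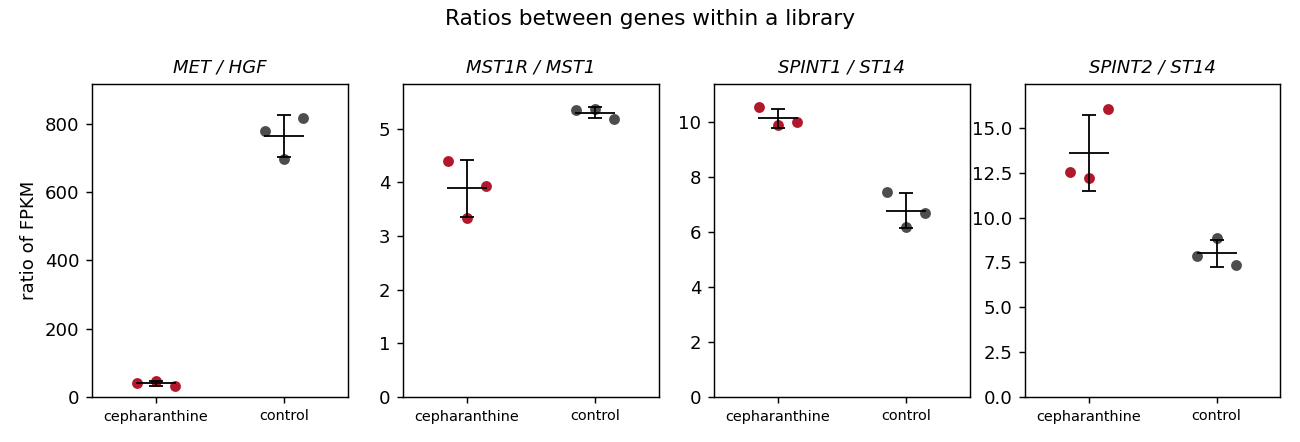
Ratio of the FPKM of gene pairs within each library (vertical axis, from 0, a separate scale in each panel). Points are the 3 cepharanthine and 3 control libraries, and bars are the mean and SD. The ratio of MET to HGF is 32.0 to 47.0 with cepharanthine and 697 to 817 in controls, and both inhibitors are higher relative to ST14 with cepharanthine.

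Ordered by FPKM, the 9 genes kept the same places in both groups. In cepharanthine libraries MET led with 69.2 ± 4.25 FPKM, followed by SPINT2 (64.1 ± 6.76), SPINT1 (48.1 ± 2.96), MST1R (15.6 ± 1.35), ST14 (4.74 ± 0.232), MST1 (4.03 ± 0.317), HGF (1.79 ± 0.352), HGFAC (0.0642 ± 0.0604) and HPN (0.0274 ± 0.0260). The ranges of MET and SPINT2 overlapped there, as did those of HGFAC and HPN. In control libraries MET was at 119 ± 5.01 FPKM, SPINT2 at 65.9 ± 9.50, SPINT1 at 55.6 ± 1.84, MST1R at 26.2 ± 2.35, ST14 at 8.22 ± 0.506, MST1 at 4.93 ± 0.375, HGF at 0.157 ± 0.0149, HGFAC at 0.117 ± 0.0156 and HPN at 0.0912 ± 0.0853 (SD, n = 3 each). Among neighbours in this order, only HGFAC and HPN had overlapping ranges in controls, and the range of HPN there, from 0 to 0.169 FPKM, also reached that of HGF. MET stood clear of SPINT2 in controls.

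All 9 genes passed the filter on low counts. In the edgeR quasi-likelihood test across all genes, with Benjamini-Hochberg adjustment and a threshold of 0.05, HGF was called higher, and 5 members were called lower, while HGFAC, HPN and SPINT2 were not called. Of all genes tested 14.7% were called higher and 13.2% lower. The same 1 member lay above, and the same 5 lay below, in every treated library, as 21.8% and 21.7% of tested genes did. The contrast chose the set, so nothing is read from these counts. MET, ST14 and MST1R were called lower in each of 15 alternative fits, and HGF was called higher in the 12 that included it. SPINT1 and MST1 were called lower in 4 of 15 each. With a library left out, SPINT1 kept its call only without control replicate 2 and MST1 only without cepharanthine replicate 2, and both lost it under a block on replicate number. The share of calls that were higher was 52.6% in this test, 62.8% in limma on log2(FPKM + 1) and 83.4% after rescaling to TPM, where the median over all genes was 0.26 in place of 0.07 on FPKM. Under TPM the values for MET, MST1R and ST14 were -0.60 ± 0.09, -0.56 ± 0.12 and -0.58 ± 0.11, so all 3 remained lower.

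**Figure D3:**
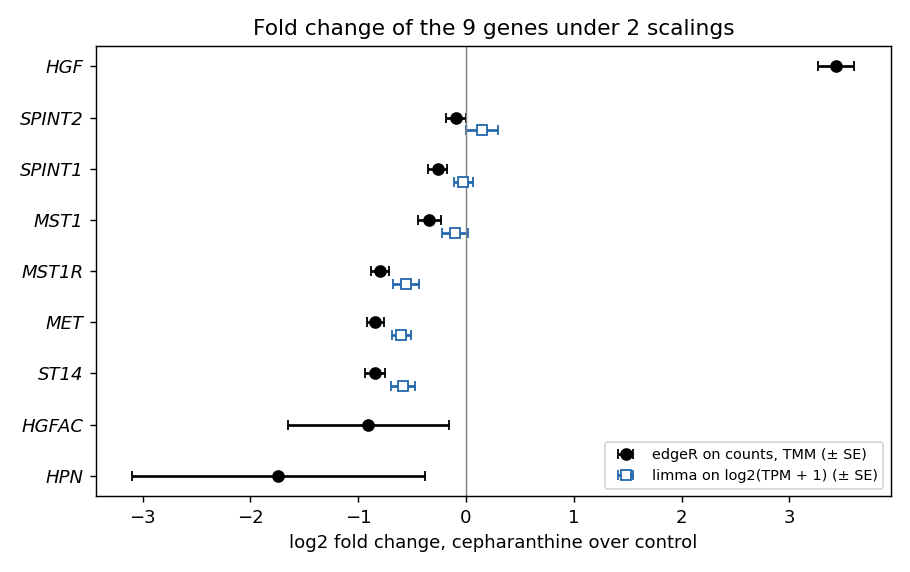
Log2 fold change of cepharanthine over control (horizontal axis) for the 9 genes. Black circles are the edgeR values on counts with TMM scaling, blue squares are limma values on log2(TPM + 1) for the 6 genes whose mean FPKM reached 1, and bars are the SE. HGF stands at 3.44, MET, MST1R and ST14 are below 0 under both scalings, and SPINT1, SPINT2 and MST1 lie near 0 under TPM.

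Other proteases of the system were lower or did not pass the test. This list holds enzymes that can cut HGF or MST1 or work with matriptase, and the serpins that restrain them. Of its 24 genes, 20 were in the table used here and 14 were tested: 0 were called higher and 5 lower by edgeR, 0 and 6 at an unadjusted p under 0.05, and 0 higher by DESeq2. The calls were 35.7% of the tested list, against 27.9% of all genes tested, of which 13.2% were lower. The median log2 fold change was -0.35, against -0.02 over all genes tested. PLAT, the tissue plasminogen activator, fell to 1444 ± 139 CPM with cepharanthine, against 3051 ± 304 CPM in controls (log2 fold change -1.08 ± 0.10, edgeR adjusted p = 4.8e-05). The urokinase gene PLAU, whose product can also cut HGF, was at 674 ± 12.2 CPM with cepharanthine and 656 ± 36.5 CPM in controls (0.04 ± 0.07, edgeR adjusted p = 0.720). TMPRSS2, a membrane protease of the prostate, fell (-0.67 ± 0.08), as did the kallikrein KLK14 (-1.51 ± 0.29) and EPCAM, an adhesion protein that matriptase cleaves (-0.37 ± 0.07), with edgeR adjusted p of 3.1e-04, 0.00389 and 0.00480. The fall of EPCAM lost its call after rescaling to TPM. PRSS8, prostasin, which acts in a cascade with matriptase, was at 13.5 ± 2.93 CPM with cepharanthine and 16.3 ± 2.12 CPM in controls (edgeR adjusted p = 0.288).

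Co-receptors of MET and carriers of heparan sulfate, the sugar chain that holds HGF at the cell surface, were mostly lower where they were called. Of 30 genes 29 were tested, and 2 were called higher and 12 lower, or 48.3% in all against 27.9% of all genes tested. The median was -0.26, but 0.03 after rescaling to TPM, where 6 were higher and 7 lower. Of all 13451 genes in the TPM fit, 4931 were higher and 983 lower, with a median of 0.26. The syndecan SDC1 fell to 80.9, 84.8 and 76.0 CPM with cepharanthine, against 285, 316 and 269 CPM in controls (log2 fold change -1.85 ± 0.08, edgeR adjusted p = 2.6e-06). The matrix proteoglycan perlecan, HSPG2, fell to 269 ± 45.0 CPM, against 838 ± 107 CPM in controls (-1.64 ± 0.13). SULF2, which trims sulfate groups from heparan sulfate, fell to 505 ± 52.8 CPM, against 1223 ± 122 CPM in controls (-1.28 ± 0.10). ITGA6, the integrin subunit that pairs with the MET partner ITGB4, fell (-0.92 ± 0.07), as did the neuropilin NRP2 (-1.02 ± 0.09) and the receptor kinase ERBB2 (-0.58 ± 0.08). For these 6 the edgeR adjusted p lay between 2.6e-06 and 6.9e-04. The 2 that rose were SDC4 (0.34 ± 0.11) and ICAM1 (0.40 ± 0.10), with edgeR adjusted p of 0.0465 and 0.0128, named after their values were seen. They became 0 without cepharanthine replicate 1 and 1 without cepharanthine replicate 2 or 3 or control replicate 1 or 3, and the 12 that fell became between 8 and 11 with a library left out.

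Adaptors, effectors and negative regulators of the receptor, taken as a single list, were more often called higher than lower. The list mixes genes that carry the signal with genes that oppose it, so its counts give no direction for signalling. Of 44 genes, all tested, 17 were called higher and 4 lower, or 47.7% in all against 27.9% of all genes tested, with a median log2 fold change of 0.17. After rescaling to TPM, 24 of the 38 in that fit were higher and 1 lower, with a median of 0.46 beside 0.26 over all genes. Of all 13451 genes in that fit, 4931 were higher and 983 lower. The kinase MEK1, MAP2K1, rose to 95.2 ± 15.6 CPM, against 60.5 ± 1.14 CPM in controls (0.65 ± 0.11, edgeR adjusted p = 0.00163), and the adaptor CRK rose by 0.42 ± 0.08 (edgeR adjusted p = 0.00453). The ubiquitin ligase CBLB rose (0.61 ± 0.09, edgeR adjusted p = 7.5e-04), as did its relative CBL, which marks MET for degradation (0.35 ± 0.08, edgeR adjusted p = 0.0103, named after its value was seen). ADAM17, a protease that sheds receptor ectodomains, rose by 0.53 ± 0.08 (edgeR adjusted p = 8.9e-04). The phospholipase PLCG1 fell (-0.58 ± 0.07, edgeR adjusted p = 3.5e-04), as did GGA3, a sorting adaptor for recycling MET (-0.47 ± 0.08, edgeR adjusted p = 0.00223), which lost its call after rescaling to TPM. The docking protein GAB1 was not called (0.06 ± 0.12, edgeR adjusted p = 0.730). The 17 rises became 10 without cepharanthine replicate 1, 11 without cepharanthine replicate 2 or 3, 8 without control replicate 3 and 9 under a block on replicate number.

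Genes known to be induced by HGF in epithelial cells moved in both directions on counts. After rescaling to TPM their calls were mostly higher, as were 83.4% of the calls over all genes. Of 34 genes 33 were tested, with 11 called higher, 7 lower and a median of 0.15. These calls made up 54.5% of the tested list, against 27.9% of all genes tested. On TPM 14 of 29 were higher and 1 lower, with a median of 0.34. Over all 13451 genes of that fit, 4931 were higher and 983 lower, with a median of 0.26. The chemokine CXCL8 rose to 314, 308 and 491 CPM with cepharanthine, against 100, 107 and 87.8 CPM in controls (log2 fold change 1.92 ± 0.17, edgeR adjusted p = 4.7e-05). The transcription factor genes JUN (0.89 ± 0.08) and JUNB (0.88 ± 0.13), the collagenase MMP1 (0.86 ± 0.12) and the EGFR ligand AREG (0.74 ± 0.11) rose, with edgeR adjusted p between 4.5e-05 and 8.1e-04. The feedback inhibitor SPRY4 fell to 109.6 ± 11.4 CPM, against 214 ± 24.7 CPM in controls (-0.97 ± 0.11, edgeR adjusted p = 1.5e-04). DUSP6, the ERK phosphatase that is a usual readout of this pathway, was not called (-0.14 ± 0.08, edgeR adjusted p = 0.258). Neither was EGR1 (0.04 ± 0.52, edgeR adjusted p = 0.969), which was low, at 0.270 to 0.981 CPM. In the same list DUSP4 was called lower (-0.48 ± 0.08, edgeR adjusted p = 0.00186). ETV5 (0.33 ± 0.07), SPRY2 (0.36 ± 0.09) and IER3 (0.35 ± 0.12) were called higher, with edgeR adjusted p of 0.00447, 0.0170 and 0.0479. Without cepharanthine replicate 2 the 11 rises became 7.

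Known regulators of HGF or MET transcription were called in both directions on counts. Of 27 genes 26 were tested, with 6 higher, 6 lower and a median of 0.08. These calls made up 46.2% of those tested, against 27.9% over all genes. On TPM 11 of 20 were higher and 2 lower, with a median of 0.33. Over all 13451 genes of that fit, 4931 were higher and 983 lower, with a median of 0.26. IL6, a cytokine that raises HGF transcription in other cells, rose to 30.1, 30.9 and 34.6 CPM with cepharanthine, against 7.30, 9.02 and 9.38 CPM in controls (1.89 ± 0.13, edgeR adjusted p = 1.1e-05). CEBPB, a factor known to bind the HGF promoter, rose to 74.8 ± 3.26 CPM, against 49.5 ± 1.99 CPM in controls (0.60 ± 0.07, edgeR adjusted p = 3.0e-04). NR2F1, the nuclear receptor COUP-TF1, fell to 127 ± 8.93 CPM, against 404 ± 58.5 CPM in controls (-1.67 ± 0.11, edgeR adjusted p = 9.2e-06). FGF2 rose (0.57 ± 0.09), while PDGFB (-0.74 ± 0.09) and IL1B (-0.43 ± 0.10) fell, with edgeR adjusted p of 0.00143, 2.5e-04 and 0.0126 for the 3 genes. IL1B had no call after rescaling to TPM. SP1 (0.05 ± 0.08, edgeR adjusted p = 0.727) and RELA (0.20 ± 0.08, edgeR adjusted p = 0.0949) did not pass. The 6 falls became 3 without cepharanthine replicate 1 or 3 or control replicate 1 or 3, and the 6 rises became 3 without cepharanthine replicate 2.

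**Figure D4:**
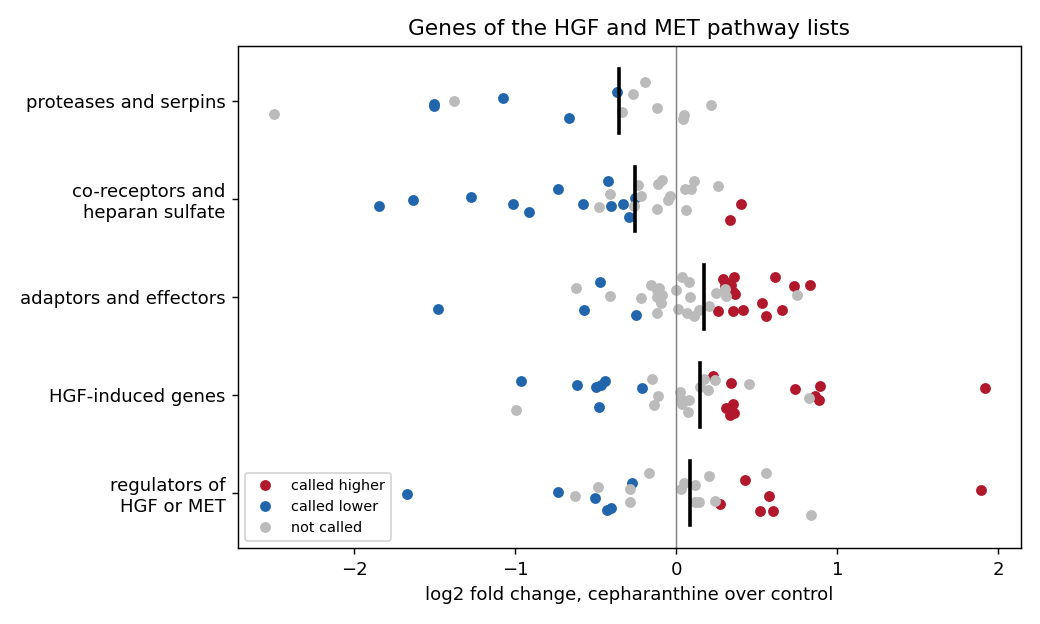
Log2 fold change of cepharanthine over control (horizontal axis) for the tested genes of 5 pathway lists. Each point is a gene, red where called higher, blue where called lower and grey where not called by edgeR, the black bar is the list median, and the vertical scatter within a list has no meaning. Medians run from -0.35 for proteases and serpins to 0.17 for adaptors and effectors, a list that also holds negative regulators. CXCL8 and IL6 lie furthest to the right.

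The genes whose pattern over the 6 libraries was most like that of HGF were of low abundance. Likeness was the root mean square difference of log2 CPM after centring each gene on its mean. The closest were PRR32 (0.0633), PCDHA1 (0.191), CA7 (0.248), LINC01693 (0.285) and AL499627 (0.286). PRR32, PCDHA1, CA7 and AL499627 had a count of 0 in all control libraries and means of 0.298 to 0.358 CPM with cepharanthine, so their likeness rests on the prior count of 2 added before the logarithm. Among 16195 genes with a mean control level of at least 1 CPM, a limit set after these values were seen, the closest were RPLP0P2 (0.551), the stromelysin gene MMP10 (0.552), TM4SF19 (0.619), C2CD4A (0.623) and SOD2, the mitochondrial superoxide dismutase (0.658). MMP10 was at 9.52 ± 0.153 CPM with cepharanthine and 1.84 ± 0.142 CPM in controls, a control level close to that of HGF with a smaller fold change (log2 2.37 ± 0.16). SOD2 was at 263 ± 42.7 CPM with cepharanthine and 60.5 ± 7.64 CPM in controls (2.12 ± 0.13).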

How the data were processed

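Per the file headers, the deposited table holds raw read counts and FPKM in each library, made by the authors. Sources used here do not state the gene lengths behind the FPKM, the aligner, the counting tool or the use of strand. Builds GRCm38, mm10 and hg38 appear in the submitters' processing notes without a role. Gene identifiers matched GENCODE 29 for 96.8%, of which 99.9% overlapped the same gene on GRCh38. Control columns (CH0) were assigned to the control samples (NC) by replicate number.

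Counts were filtered with filterByExpr, scaled by TMM and tested with edgeR 4.0.16 (quasi-likelihood, R 4.3.3), as a two-sided test, over 21965 genes. The SE was the absolute log2 fold change divided by the square root of F. Limma 3.58.1 and DESeq2 1.42.0 were alternatives. Tests were checked on simulated data with 200 changed genes. No libraries were identical. The members, lists and tests were chosen with earlier results of these data known. All members, up to 6 called genes of each list with the smallest p, the 5 nearest profiles and the neighbours of HGF were named by rule, except where a result is not reported here. The list genes PLAU, PRSS8, GAB1, CBL, DUSP4, DUSP6, EGR1, ETV5, SPRY2, IER3, SP1, RELA, SDC4 and ICAM1 were named after their values were seen. Promoter windows were those of RefSeq without the bases after the start.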

Additional observations from a re-analysis of the deposited data

How the results depend on the processing

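HGF kept a log2 fold change of 3.34 to 3.55 with each library left out, but was 1.26 in limma on log2(FPKM + 1) without a filter, where the pseudocount exceeds its control FPKM. The limma fits filtered at a mean FPKM of 1 do not include it. Genes called higher numbered 3219 (2392 to 3094 with a library left out), 2077 in limma without a filter and 4931 on TPM. Genes called lower numbered 2902 (2120 to 2607), 1897 and 1883 in limma with pseudocounts of 1 and 0.1, 1333 without a filter and 983 on TPM.

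Among co-receptors, 2 higher became 1 in edgeR without a filter, with the replicate block and in limma on FPKM with either pseudocount or without a filter, 6 on TPM and 0 to 2 with a library left out. Their 12 lower became 7 in limma without a filter and 7 on TPM. Among effectors, 17 higher became 9 with the replicate block, 9 in limma without a filter and 8 to 14 with a library left out, and 4 lower became 2 in limma on FPKM with either pseudocount and 1 on TPM. Among HGF-induced genes, 11 higher became 7 to 10 with a library left out, and 7 lower became 4 in limma without a filter and 1 on TPM. Among regulators, 6 higher became 11 on TPM and 3 to 6 with a library left out, and 6 lower became 2 in limma without a filter, 2 on TPM and 3 to 6 with a library left out. The cause of these shifts was not tested.

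Deviations of same-numbered libraries from their group means had correlations of 0.0036, -0.0069 and -0.070. These values showed no pairing by number, which 3 libraries per group cannot exclude. The replicate block gave 2544 higher and 2294 lower. Of the 29 list genes that the naming rule picks, all kept their call except IL1B in limma without a filter and EPCAM, GGA3 and IL1B on TPM. The fit without mitochondrially encoded genes was added after the values were seen and gave 3215 higher and 2877 lower. HGFAC and HPN had at most 40 counts in a library, and for HPN 1 library of each group was at 0.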

Other observations

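Some markers outside the pathway differed between the groups. VIM, the intermediate filament vimentin, rose to 1157, 1258 and 1070 CPM with cepharanthine, against 650, 675 and 749 CPM in controls (log2 fold change 0.75 ± 0.09, edgeR adjusted p = 2.0e-04). The simple keratin KRT7 fell to 368, 385 and 332 CPM with cepharanthine, against 519, 484 and 495 CPM in controls (-0.47 ± 0.08, edgeR adjusted p = 0.00168). Among the other keratins of the list KRT8 rose (0.25 ± 0.07, edgeR adjusted p = 0.0242), while KRT18 (-0.02 ± 0.08) and KRT19 (-0.06 ± 0.07) did not pass. CDH1, which encodes E-cadherin, was at 80.2, 80.4 and 78.1 CPM with cepharanthine and at 86.9, 82.1 and 94.2 CPM in controls and did not pass. Of 5 endothelial markers only PECAM1 and KDR were tested, and both were called lower, as were 13.2% of all genes tested. PECAM1 was at 19.2, 24.6 and 19.0 CPM with cepharanthine and at 47.6, 48.1 and 43.6 CPM in controls (log2 fold change -1.15 ± 0.11, edgeR adjusted p = 8.7e-05). KDR was at 6.73 ± 1.28 CPM with cepharanthine and 14.5 ± 1.88 CPM in controls (SD, log2 fold change -1.11 ± 0.18, edgeR adjusted p = 0.00132). CDH5, VWF and TEK did not exceed 0.426 CPM in any library.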
